A study of Mus musculus with 9 samples.

Results

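The cytoplasmic actins and tubulins are the genes described here: 2 actins (Actb, Actg1), 3 α-tubulins (Tuba1a, Tuba1b, Tuba1c) and 5 β-tubulins (Tubb2a, Tubb3, Tubb4b, Tubb5, Tubb6). They were chosen by name, and all 10 were found among the 22396 genes of the count table. In the study, RIG-I, a cytosolic RNA sensor, was pulled down by its FLAG tag with anti-FLAG beads from lysates of B16F10 cells, a mouse melanoma line. The RNA that came with it was depleted of ribosomal RNA, prepared with a stranded kit and sequenced as paired-end reads of 150 bases. The 3 groups stably expressed shCtr, a control shRNA, or shOSGEP#1 or shOSGEP#2, each directed at Osgep, and had 3 replicates from independent experiments. OSGEP catalyses the t6A modification of tRNAs that read codons starting with A. Cells of every group also stably expressed FLAG-tagged RIG-I from a lentivirus, and the labels give the genotype of all samples as WT.

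Actins polymerise into filaments that give the cell cortex its shape and contractility, and α- and β-tubulins form the heterodimers of microtubules. Both protein families need the chaperonin CCT and prefoldin to fold, and tubulin dimers are further assembled by tubulin cofactors. Cells also adjust tubulin synthesis to the pool of free dimers: TTC5 recognises the first residues of the nascent tubulin chain and, with SCAPER and the CCR4-NOT complex, triggers decay of the translated tubulin mRNA. Because they are abundant, actin and tubulin serve as loading controls of immunoblots.

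Total counts ran from 14914731 to 50224299 in 8 libraries, and shOSGEP#2 replicate 2 had 568995. Levels are given as CPM, the count scaled to the total of the library, and are shares of RIG-I-bound RNA. A lower share could reflect less of that RNA in the cell, less of it recovered, or more of other RNAs in the library. These cannot be told apart here, as whole-lysate RNA was not analysed. In shOSGEP#2 replicate 2, 4196 genes had a count, against 11733 to 13958 in the other libraries, and 3 counts corresponded to a CPM of 5.27. Of the 478 genes with a CPM of at least 300 in both other shOSGEP#2 libraries, 46 (9.62%) had 0 counts there. This library is therefore shown apart, and the comparisons rest on the 8 other libraries, with edgeR values of all 9 given for shOSGEP#2 against shCtr for the 10 actin and tubulin genes, and for each call of a named gene that involves shOSGEP#2. Intervals of single shares are 95% Wilson intervals and, like the floor of 3 counts, cover counting error only. In shOSGEP#1 replicate 3, mitochondrially encoded genes took 2.96% of the counts, against 0.147% to 0.445% in the 7 other deep libraries. Several tubulins were lower there than in the other deep libraries, and the part of this difference in their values was not tested.

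Osgep, the target of both shRNAs, had a CPM of 19.1, 19.9 and 15.5 in shCtr replicates 1 to 3. It had 3.76, 1.15 and 1.53 in shOSGEP#1 replicates 1 to 3, and 0.0786 and 2.88 in shOSGEP#2 replicates 1 and 3. Every deep library with an shRNA against Osgep was below every shCtr library. The log2 fold change was -3.10 (SE 0.73) for shOSGEP#1 and -3.84 (SE 0.93) for shOSGEP#2, with edgeR adjusted p-values of 0.0128 and 0.0150 just above the threshold of 0.01. They passed it in 5 and 4 of 17 alternatives. Without shOSGEP#2 replicate 1 the second value was -2.78 (adjusted p 0.0136) and without replicate 3 it was -7.86 and called (0.00134), so its size depends on which of these libraries is used. Over all 9 libraries it was -3.95 (adjusted p 0.302). The count in shOSGEP#2 replicate 2 was 0, where 0.843 counts were projected from the other libraries of the group. Of 8997 genes with a CPM of at least 10 in both of those libraries, 5019 (55.8%) also had 0 counts there, so this zero is not read as depletion.

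The identity of the cells was checked with marker genes. All 8 melanocytic markers were detected in every deep library, with Gpnmb highest by the mean of these libraries, and summed to a CPM of 8880, 8065 and 10702 in shCtr replicates 1 to 3. The sum was 10458, 13562 and 12386 in shOSGEP#1, and 3717 and 4611 in shOSGEP#2 replicates 1 and 3, with 2511 in replicate 2. Single markers did not all move as the sum did: in shOSGEP#1 Gpnmb was at 4170 to 5997, against 2027 to 2543 in shCtr, and Tyr at 26.1 to 30.4, against 153 to 193. The sums of both deep shOSGEP#2 libraries lay below those of every shCtr and shOSGEP#1 library, and the part of this difference in the values of the cytoskeletal genes was not tested. The 6 fibroblast markers summed to 3.64 to 7.26 in shCtr and shOSGEP#1 libraries and to 16.5 and 39.1 in shOSGEP#2 replicates 1 and 3, with 68.5 in replicate 2. By the mean of the deep libraries Col1a2 was the most abundant, and Lum was at 0 in every library. Not every fibroblast marker followed the sum. Col3a1 was at 0.0786 and 5.30 in shOSGEP#2 replicates 1 and 3, against 0.126 to 0.957 in shCtr. Pdgfra was at 4.44 and 0.939, against 0.670 to 1.24, and the 68.5 of replicate 2 was Col1a1 alone. The 5 leukocyte markers summed to at most 3.29, with Csf1r highest by that mean, and the 4 endothelial markers to at most 2.18, with Pecam1 highest. Of the 4 keratinocyte markers, Krt5, Krt10 and Krt1 were at 0 in every library, and Krt14 reached 0.116.

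Of 12744 genes that passed the filter on low counts, 1232 (9.67%) differed between shOSGEP#1 and shCtr, with 637 higher (5.00%) and 595 lower (4.67%). All 10 actin and tubulin genes passed the filter. Among them 2 fell in shOSGEP#1, Tuba1a and Tuba1c, and none was called higher. For shOSGEP#2 against shCtr, 1217 genes (9.55%) were called, with 721 higher (5.66%) and 496 lower (3.89%), and among the 10 genes Tuba1a fell. With library totals in place of TMM scaling, 901 of 1276 called genes were higher in this comparison. Between the shRNAs, 1375 genes (10.8%) were called, with 794 higher (6.23%) and 581 lower (4.56%) in shOSGEP#2, and among the 10 genes Tubb6 was higher. With library totals, 915 of 1391 called genes were higher in shOSGEP#2 than in shOSGEP#1. The comparisons of both shRNAs share the shCtr libraries.

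CPM ranges of the deep libraries did not overlap between shOSGEP#1 and shCtr for 5 of the 10 genes (45.3% of all genes tested), between shOSGEP#2 and shCtr for 4 (52.3%) and between the shRNAs for 5 (49.6%). The median log2 fold change of the 10 genes was -0.52 for shOSGEP#1, -0.05 for shOSGEP#2 and 0.17 between the shRNAs. Over all genes tested it was 0.00211, -0.06 and -0.04. With all 9 libraries in the fit, edgeR called 0 of 12337 genes for each contrast, and 620, 1240 and 1325 were below 0.05 before adjustment (unadjusted p under 0.05), among them 0, 0 and 2 of the 10. The median of all genes for shOSGEP#2 was then -0.37. DESeq2 on all 9 libraries called 122, 349 and 413 genes and 0 of the 10 in each comparison, and limma voom with sample weights called 3317, 1012 and 933 genes, with 6, 0 and 0 of the 10.

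**Figure D1:**
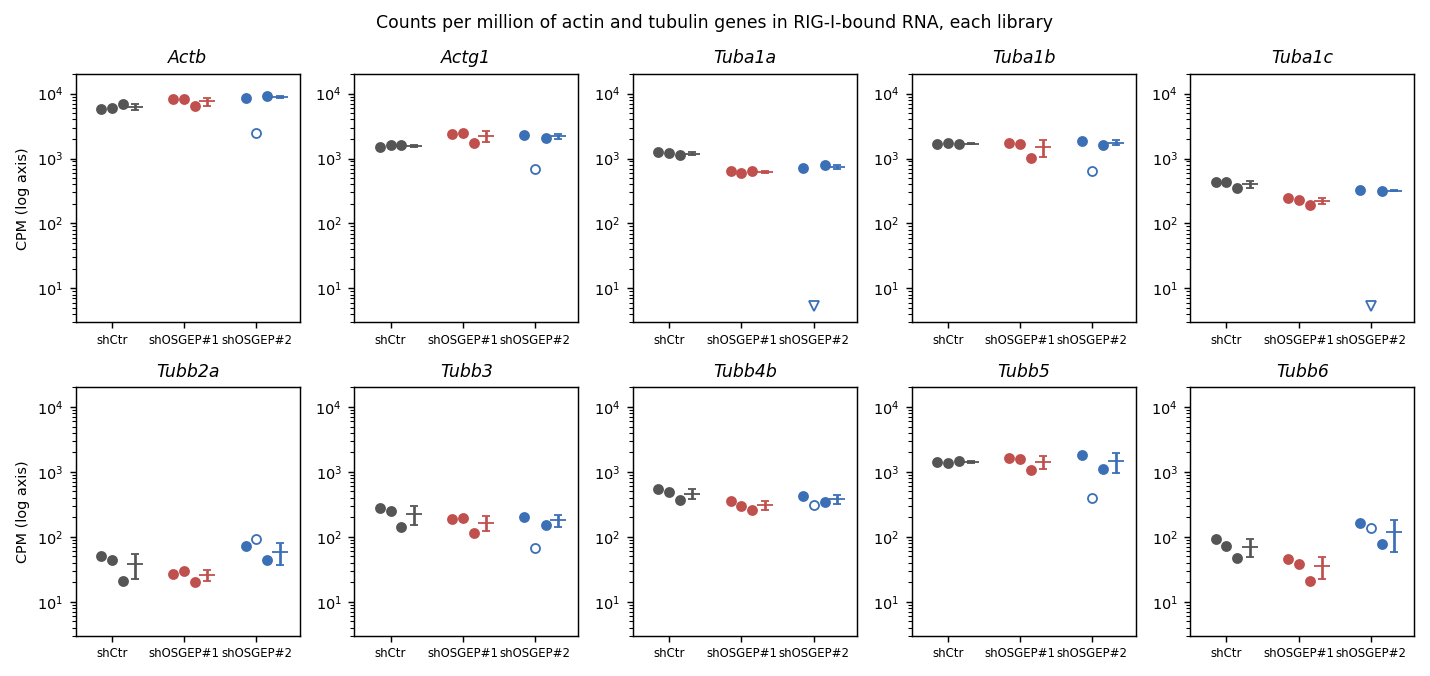
CPM (log axis) of each gene in each library, by group: filled points are the 8 deep libraries, horizontal marks with bars their mean and SD (n = 3 for shCtr and shOSGEP#1, n = 2 for shOSGEP#2), open points shOSGEP#2 replicate 2, and open triangles a count of 0 drawn at the CPM of 3 counts (5.27). Tuba1a lies at 597 to 788 in the 5 deep libraries with an shRNA against Osgep and at 1127 to 1248 in shCtr.

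Members of these families share sequence, so reads can be assigned to more than 1 gene, and the authors' quantification divided such reads by an estimate. In the longest annotated transcript, 77.0% of 31-base windows of Tuba1a, 75.4% of Tuba1b and 63.9% of Tuba1c occurred in a transcript of another gene. Windows of 150 bases, the read length, were shared for 54.7%, 57.9% and 46.7%. The split between the α-tubulin genes is therefore uncertain, and their sum is less dependent on it. Tubb2a shared 56.4% of its 31-base windows, mostly with Tubb2b (51.1%), whose CPM lay between 3.85 and 9.66 in the deep libraries, with 0 counts in shOSGEP#2 replicate 2. Tubb4b shared 64.6%, mostly with the pseudogene Tubb4b-ps1 (54.5%), and Actg1 57.1%, mostly with the pseudogene Gm12715 (53.6%). Neither pseudogene is among the 22396 genes. Actb shared 35.1%, with Lrrc58 as the gene sharing most (22.7%), but none of its 150-base windows. Tubb3, Tubb5 and Tubb6 shared 3.3%, 4.4% and 3.9% of 31-base windows and no 150-base window, so their counts are the least affected. Actb and Actg1 shared 5.6% and 5.5% of their 31-base windows with each other.

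Actb encodes β-actin. Its CPM was 5688, 5965 and 6978 in shCtr replicates 1 to 3, 8126, 8213 and 6366 in shOSGEP#1, and 8644 and 9091 in shOSGEP#2 replicates 1 and 3. The deep shOSGEP#2 libraries lay above every other library, whereas shOSGEP#1 replicate 3 lay within the shCtr range. Fold changes on the log2 scale were 0.27 (SE 0.14, adjusted p 0.209) for shOSGEP#1 and 0.42 (SE 0.16, adjusted p 0.0875) for shOSGEP#2, neither past the threshold. The direct difference between the shRNAs was 0.15 (95% confidence interval -0.21 to 0.50, adjusted p 0.542). The CPM in shOSGEP#2 replicate 2 was 2487 (95% interval 2361 to 2620), below all other libraries, with 1415 counts against 5046 projected from the group's other libraries. Including shOSGEP#2 replicate 2, the fold change for shOSGEP#2 turned to -0.03 in edgeR and -0.06 in DESeq2. It stayed above 0 in limma voom with sample weights, so its direction depends on that library and on the method.

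Actg1, which encodes γ-actin, had a CPM of 1519, 1605 and 1609 in shCtr, 2427, 2501 and 1757 in shOSGEP#1, and 2322 and 2053 in shOSGEP#2 replicates 1 and 3. All 5 deep libraries with an shRNA against Osgep were above the 3 shCtr libraries. In edgeR the log2 fold change was 0.49 (SE 0.16, adjusted p 0.0513) for shOSGEP#1 and 0.38 (SE 0.18, adjusted p 0.152) for shOSGEP#2. Neither passed the threshold. With all 9 libraries the values were 0.48 and -0.05. In limma voom with sample weights on all 9 libraries, Actg1 (adjusted p 0.00026) and Actb (adjusted p 0.00415) were called higher in shOSGEP#1.

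Both actins together took 0.779% ± 0.0715 of the counts in shCtr (mean ± SD, n = 3), 0.980% ± 0.145 in shOSGEP#1 (n = 3) and 1.11% ± 0.0126 in the deep shOSGEP#2 libraries (n = 2). Per library the actin sum was a CPM of 7207, 7570 and 8587 in shCtr, 10554, 10714 and 8123 in shOSGEP#1, and 10966 and 11144 in shOSGEP#2 replicates 1 and 3. The shOSGEP#1 sums therefore overlapped those of shCtr through replicate 3, and the deep shOSGEP#2 sums did not. The ratio of Actg1 to Actb counts was 0.267, 0.269 and 0.231 in shCtr, 0.299, 0.305 and 0.276 in shOSGEP#1, and 0.269, 0.281 and 0.226 in shOSGEP#2 replicates 1 to 3. All shOSGEP#1 ratios were above the shCtr ones, while the deep shOSGEP#2 libraries had 1 ratio within the shCtr range and 1 just below it. The ratio in shOSGEP#2 replicate 2, where Actg1 took 22.0% of actin counts (95% interval 20.1% to 23.9%), was similar to that of the deep libraries although its actin share was 0.319%.

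Tuba1a, an α-tubulin best known from developing neurons, had a CPM of 1248, 1205 and 1127 in shCtr replicates 1 to 3, 633, 597 and 632 in shOSGEP#1, and 713 and 788 in shOSGEP#2 replicates 1 and 3. Every deep library with an shRNA against Osgep was below every shCtr library, and replicates of a group differed by less than the groups did. The log2 fold change was -0.96 (SE 0.13, 95% confidence interval -1.24 to -0.67, adjusted p 0.00081) for shOSGEP#1 and -0.77 (SE 0.14, -1.08 to -0.45, adjusted p 0.00419) for shOSGEP#2. The difference between the shRNAs was 0.19 (-0.12 to 0.50, adjusted p 0.351). Leaving out any 1 of the 8 libraries kept the call for shOSGEP#1. For shOSGEP#2 it was lost without shCtr replicate 1 (adjusted p 0.0198), shCtr replicate 2 (0.0219), shOSGEP#2 replicate 1 (0.0189) or shOSGEP#2 replicate 3 (0.0192), with fold changes of -0.73, -0.76, -0.73 and -0.81. Including shOSGEP#2 replicate 2, the fold changes were -0.97 and -1.33 and neither was called (adjusted p 1.00 and 0.805).

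Tuba1c, an α-tubulin expressed in many dividing cells, had a CPM of 439, 431 and 347 in shCtr, 246, 228 and 194 in shOSGEP#1, and 325 and 314 in shOSGEP#2 replicates 1 and 3. The shOSGEP#1 libraries were lowest, the shCtr libraries highest, and the deep shOSGEP#2 libraries lay between them without overlap. Tuba1c fell in shOSGEP#1 (log2 fold change -0.88, SE 0.15, adjusted p 0.00285), a call lost without shCtr replicate 1 (adjusted p 0.0154), shCtr replicate 2 (0.0200) or shOSGEP#1 replicate 2 (0.0146). Those fold changes were -0.83, -0.83 and -0.90. For shOSGEP#2 the value was -0.44 (SE 0.17, adjusted p 0.0943), and the difference between the shRNAs was 0.44 (SE 0.17, adjusted p 0.0816), so neither passed the threshold. A fit of all 9 libraries gave -0.89 for shOSGEP#1 and -1.002 for shOSGEP#2, and neither was called (adjusted p 1.00 and 0.825).

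Tuba1b, the ubiquitous α-tubulin, had a CPM of 1703, 1717 and 1662 in shCtr, 1762, 1702 and 1004 in shOSGEP#1, and 1853 and 1641 in shOSGEP#2 replicates 1 and 3. Only shOSGEP#1 replicate 3 stood away from the other deep libraries. Fold changes on the log2 scale were -0.20 (95% confidence interval -0.64 to 0.24) for shOSGEP#1 and -0.05 (-0.54 to 0.44) for shOSGEP#2, and without shOSGEP#1 replicate 3 the first was 0.02. The second was -0.46 with all 9 libraries.

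In shOSGEP#2 replicate 2, Tuba1a and Tuba1c had 0 counts (95% Wilson interval up to a CPM of 6.75), where 427 and 182 counts were projected from the group's other libraries. All 363 α-tubulin counts of that library were on Tuba1b, where 994 were projected. Some other abundant genes also had 0 counts there, as given above, so these zeros are not read as absence.

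The coding sequences of the 3 α-tubulin genes are 97.6% to 98.4% identical, with Tuba1a and Tuba1b at 98.3% and Tuba1b and Tuba1c at 98.4%.

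The α-tubulin sum, which a shift of reads between these genes would not change, was a CPM of 3390, 3354 and 3136 in shCtr, 2641, 2527 and 1829 in shOSGEP#1, and 2890 and 2743 in shOSGEP#2 replicates 1 and 3. All 5 deep libraries with an shRNA against Osgep were below the lowest shCtr library. The mean was 3293 ± 137 in shCtr (SD, n = 3), 2332 ± 439 in shOSGEP#1 (n = 3) and 2817 ± 104 in shOSGEP#2 (n = 2). The composition differed as well. Tuba1a took 36.8%, 35.9% and 35.9% of α-tubulin counts in shCtr, 24.0%, 23.6% and 34.5% in shOSGEP#1, and 24.7% and 28.7% in shOSGEP#2 replicates 1 and 3. In shOSGEP#1 replicate 3 this share was close to that of shCtr, because Tuba1b was lower there too, and in the other deep libraries with an shRNA against Osgep it was lower. Tuba1b took 50.3% to 53.0% in shCtr and 54.9% to 67.3% in the other deep libraries. The 95% intervals of the shares within the 3 families reached at most 0.588 percentage points to either side in the deep libraries.

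**Figure D2:**
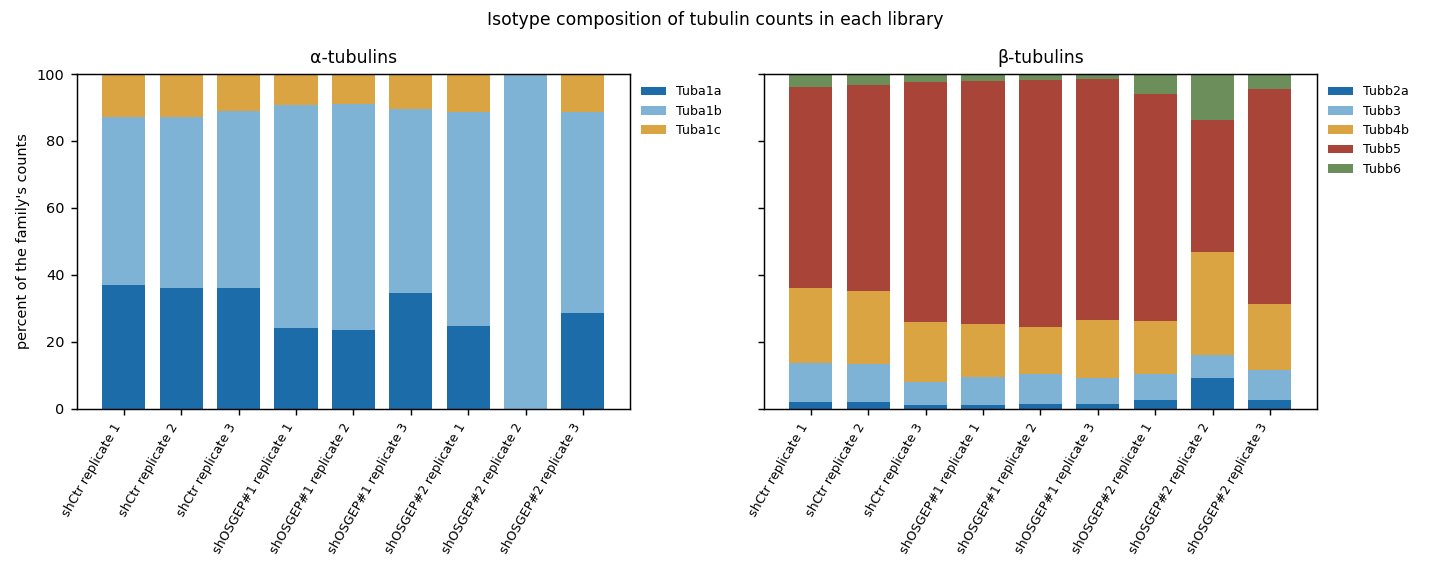
Percent of α-tubulin counts (left) and β-tubulin counts (right) on each gene in each of the 9 libraries, as stacked bars starting at 0. Tuba1a holds 35.9% to 36.8% of α-tubulin counts in shCtr, and all α-tubulin counts of shOSGEP#2 replicate 2 are on Tuba1b.

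Tubb5, the most abundant β-tubulin by CPM, had 1442, 1365 and 1469 in shCtr, 1645, 1600 and 1077 in shOSGEP#1, and 1821 and 1100 in shOSGEP#2 replicates 1 and 3. The groups overlapped, and the deep shOSGEP#2 libraries lay on both sides of shCtr. In edgeR the log2 fold change was 0.00239 (95% confidence interval -0.47 to 0.48) for shOSGEP#1 and -0.05 (-0.58 to 0.48) for shOSGEP#2, intervals that include changes of close to 0.5 in either direction. The value for shOSGEP#2 was -0.50 with all 9 libraries.

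Tubb4b, another widely expressed β-tubulin, had a CPM of 540, 485 and 368 in shCtr, 357, 299 and 261 in shOSGEP#1, and 428 and 340 in shOSGEP#2 replicates 1 and 3. All shOSGEP#1 libraries were below all shCtr libraries, the highest of them by little, and shOSGEP#2 overlapped both groups. The log2 fold change was -0.62 (SE 0.19, adjusted p 0.0375) for shOSGEP#1, past the threshold in DESeq2 (adjusted p 0.00792), and -0.36 (SE 0.21, adjusted p 0.242) for shOSGEP#2 (-0.60 with all 9 libraries). With the replicate number as a block in the edgeR fit, the value for shOSGEP#1 passed the threshold.

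Tubb3, the β-tubulin used as a marker of neurons, had a CPM of 279, 251 and 142 in shCtr, 187, 197 and 115 in shOSGEP#1, and 206 and 152 in shOSGEP#2 replicates 1 and 3. In each of the 3 groups replicate 3 was the lowest of the deep libraries, and the groups overlapped. The CPM in shOSGEP#2 replicate 2 was 66.8 (95% interval 48.7 to 91.7). Fold changes on the log2 scale were -0.44 (SE 0.27) for shOSGEP#1 and -0.41 (SE 0.30) for shOSGEP#2, with adjusted p-values of 0.273 and 0.357, and the second was -0.81 with all 9 libraries.

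Tubb6, a β-tubulin of low abundance here, had a CPM of 91.4, 73.0 and 47.9 in shCtr, 46.4, 38.8 and 20.8 in shOSGEP#1, and 162 and 76.4 in shOSGEP#2 replicates 1 and 3. The shOSGEP#1 libraries were below all shCtr libraries and the deep shOSGEP#2 libraries above all shOSGEP#1 libraries, but replicate 3 of shOSGEP#2 lay within the shCtr range and replicate 1 above it. In edgeR the log2 fold change was -1.01 (SE 0.35, adjusted p 0.0593) for shOSGEP#1 and 0.67 (SE 0.38, adjusted p 0.233) for shOSGEP#2 (0.55 with all 9 libraries). With the replicate number as a block in the edgeR fit, the value for shOSGEP#1 passed the threshold. The difference between the shRNAs itself was 1.68 (SE 0.38, 95% confidence interval 0.85 to 2.52, adjusted p 0.00952). This call was lost when any library but shOSGEP#2 replicate 3 was left out. Without shCtr replicates 1, 2 and 3 the difference was 1.70, 1.68 and 1.68 (adjusted p 0.0117, 0.0172 and 0.01004), and without shOSGEP#1 replicates 1, 2 and 3 it was 1.93, 1.76 and 1.42 (0.0112, 0.0257 and 0.0268). Without shOSGEP#2 replicate 1 it was 0.998 (0.0943). In the fit of all 9 libraries it was 1.57 (adjusted p 0.298). The counts of Tubb6 in shOSGEP#2 replicate 2 gave a CPM of 137 (95% interval 110 to 171).

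Tubb2a had the lowest CPM of the 10 genes in each of the 8 deep libraries, with 50.5, 43.7 and 20.9 in shCtr, 27.2, 29.7 and 20.0 in shOSGEP#1, and 73.3 and 43.4 in shOSGEP#2 replicates 1 and 3. The deep shOSGEP#2 libraries were above all shOSGEP#1 libraries, and shCtr overlapped both groups. The difference between the shRNAs was 1.12 (SE 0.35, adjusted p 0.0390), past the threshold in DESeq2 (adjusted p 0.00674) and not in edgeR with the main settings. With the replicate number as a block in the edgeR fit, it passed the threshold. Against shCtr the log2 fold change was -0.59 (SE 0.31) for shOSGEP#1 and 0.52 (SE 0.35) for shOSGEP#2, with adjusted p-values of 0.207 and 0.305. In a fit of all 9 libraries the last was 0.55 and the difference between the shRNAs 1.15.

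The β-tubulin sum was a CPM of 2403, 2217 and 2048 in shCtr, 2262, 2164 and 1494 in shOSGEP#1, and 2689 and 1712 in shOSGEP#2 replicates 1 and 3. The groups overlapped. Tubb5 took 60.02%, 61.6% and 71.7% of these counts in shCtr, 72.1% to 73.9% in shOSGEP#1, and 67.7% and 64.3% in shOSGEP#2 replicates 1 and 3, within the shCtr range. Tubb6 took 2.34% to 3.80% in shCtr, 1.39% to 2.05% in shOSGEP#1, and 6.01% and 4.47% in shOSGEP#2 replicates 1 and 3. In shOSGEP#2 replicate 2, with 570 β-tubulin counts, Tubb5 took 39.5% (95% interval 35.5% to 43.5%) and Tubb6 13.7% (11.1% to 16.7%). The ratio of α- to β-tubulin CPM was 1.41, 1.51 and 1.53 in shCtr, 1.17, 1.17 and 1.22 in shOSGEP#1, and 1.07 and 1.60 in shOSGEP#2 replicates 1 and 3. It was lower than in shCtr in all shOSGEP#1 libraries and in only 1 of the deep shOSGEP#2 libraries.

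The ratio of tubulin to actin CPM was 0.804, 0.736 and 0.604 in shCtr, 0.465, 0.438 and 0.409 in shOSGEP#1, and 0.509 and 0.400 in shOSGEP#2 replicates 1 and 3. All 5 were below the lowest shCtr library. All 10 genes together took 1.33% ± 0.0411 of the counts in shCtr (n = 3), 1.41% ± 0.230 in shOSGEP#1 (n = 3) and 1.61% ± 0.0670 in the deep shOSGEP#2 libraries (n = 2), and 0.483% in shOSGEP#2 replicate 2. These sums and ratios are given without a test, as the genes were chosen with earlier results of these data known.

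**Figure D3:**
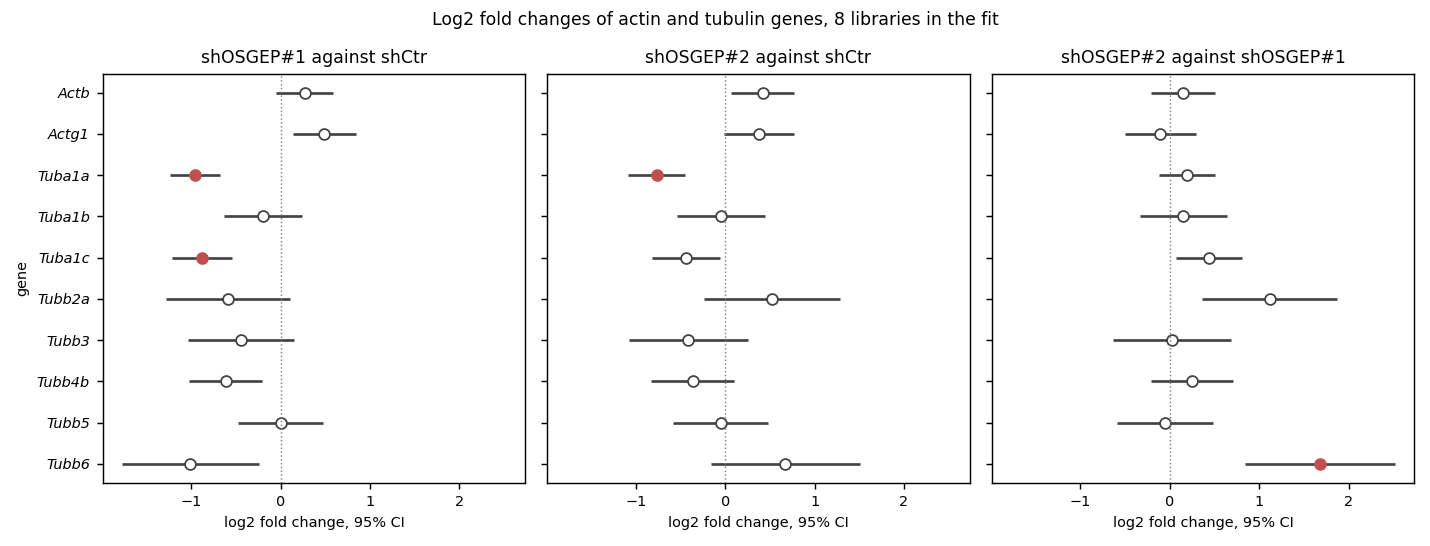
Log2 fold changes with 95% confidence intervals from edgeR over 8 libraries, for each gene in the 3 comparisons; filled red points have an adjusted p under 0.01. Filled points are Tuba1a (-0.96) and Tuba1c (-0.88) for shOSGEP#1, Tuba1a (-0.77) for shOSGEP#2 and Tubb6 (1.68) between the shRNAs.

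Between genes, levels were compared as CPM per kilobase of the longest annotated transcript. In shCtr, Actb was highest at 3235 ± 354 (SD, n = 3), followed by Tuba1b at 972 ± 16.5, Actg1 at 808 ± 25.9, Tuba1a at 662 ± 34.0 and Tubb5 at 538 ± 20.5. Lower were Tubb4b at 291 ± 55.0, Tuba1c at 205 ± 25.8, Tubb3 at 120 ± 38.6, Tubb6 at 40.2 ± 12.4 and Tubb2a at 23.8 ± 9.63. Each of the 5 highest levels was separated from the next by more than their SDs, whereas Tubb6 and Tubb2a differed by less than the sum of theirs. In both shOSGEP groups Actg1 came second, at 1142 ± 210 (n = 3) and 1121 ± 97.6 (n = 2), ahead of Tuba1b at 854 ± 242 and 1002 ± 86.0, within their SDs. Tubb5, at 544 ± 119 and 551 ± 192, came at rank 4, ahead of Tuba1a at 344 ± 11.4 and 416 ± 29.3. With the median length over annotated transcripts, Tubb5 moved to rank 3 in every group, since its longest transcript has 2649 bases and its median 870.5, so the order of Tuba1b, Actg1, Tuba1a and Tubb5 depends on the length used. The first rank of Actb and ranks 6 to 10 did not.

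The start of the tubulin coding sequence encodes the residues that TTC5 recognises. The first 12 coding bases are shown for the 7 tubulins read here, with the start codon in lower case and the next 3 codons in capitals (GENCODE transcripts of the GRCm38 annotation, sense strand, 5′ to 3′); Tubb6 is not shown. The 3 α-tubulins were identical in these bases, which encode Met-Arg-Glu-Cys. The β-tubulins shown used 3 versions of the bases, all encoding Met-Arg-Glu-Ile.
Tuba1a: atgCGTGAGTGC
Tuba1b: atgCGTGAGTGC
Tuba1c: atgCGTGAGTGC
Tubb2a: atgCGCGAGATC
Tubb3: atgAGGGAGATC
Tubb4b: atgAGGGAGATC
Tubb5: atgAGGGAAATC

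Codons starting with A, read by tRNAs with the t6A modification, made up 24.6% of the Tuba1a and of the Tuba1b coding sequence and 25.2% of that of Tuba1c. The β-tubulins had 26.1% (Tubb5) to 27.9% (Tubb2a), Actb 28.8% and Actg1 29.3%. The median over 21738 coding genes was 27.7%. The α-tubulins lay below it, with 28.4% to 31.9% of coding genes lower than they were. Actb and Actg1 lay above it, with 59.1% and 63.5% lower, and so did Tubb2a among the β-tubulins (51.3%). A link between these shares and the fold changes was not tested.

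Of the 3 autoregulation genes, all tested, Ttc5 rose in shOSGEP#2, from a CPM of 19.8, 22.1 and 17.1 in shCtr to 54.6 and 51.6 in replicates 1 and 3 (log2 fold change 1.34, SE 0.20, adjusted p 0.00100). In shOSGEP#1 it was 35.2, 34.0 and 25.8 (0.67, SE 0.18, adjusted p 0.0210), also above all shCtr libraries but not called. Scaper (0.42, adjusted p 0.207) and Cnot11 (-0.42, adjusted p 0.109), a subunit of CCR4-NOT, were not called for shOSGEP#2, nor for shOSGEP#1 at -0.03 and -0.12. The list medians were -0.03, 0.42 and 0.45, beside 0.00211, -0.06 and -0.04 over all genes, and 5.66% of all genes were called higher for shOSGEP#2. Between the shRNAs edgeR called 0 of the 3, with 1 at an unadjusted p under 0.05, and DESeq2 called 1; for shOSGEP#1 these counts were also 0, 1 and 1. Of all 12744 genes, 4722 and 4450 were at an unadjusted p under 0.05 in these comparisons, and DESeq2 called 2595 and 2420 of 15710. The call of Ttc5 held when any 1 of the 8 libraries was left out and was lost with all 9 libraries in edgeR (0.79) and DESeq2. Its count in shOSGEP#2 replicate 2 was 0.

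Of the 21 folding genes, 0 were called for shOSGEP#1 (9.67% of all genes tested) and 1, lower, for shOSGEP#2 (3.89% of all genes). The median log2 fold changes were 0.03 and -0.12, beside 0.00211 and -0.06 over all genes. The gene called was Cct3, a CCT subunit, with a CPM of 324, 303 and 269 in shCtr, 304, 260 and 247 in shOSGEP#1, and 193 and 149 in shOSGEP#2 replicates 1 and 3 (log2 fold change -0.89, SE 0.18, adjusted p 0.00634). Both deep shOSGEP#2 libraries were below every other deep library. The call was lost without shCtr replicates 1, 2 or 3 (-0.82, -0.88 and -0.96), shOSGEP#1 replicate 2 (-0.89) or shOSGEP#2 replicate 3 (-0.69), leaving 0 called, and with all 9 libraries (-1.45). Between the shRNAs edgeR called 0, with a median of -0.15 (-0.04 over all genes) and 6 at an unadjusted p under 0.05, and DESeq2 called 3 (2595 of all 15710 genes in its fit). For shOSGEP#1, 2 were at an unadjusted p under 0.05 in edgeR. Over all 12744 genes these counts were 4722 and 4450.

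Muscle actins and most of the other tubulins had a low CPM in the deep libraries. Of 4 muscle actins, Acta2 and Actg2 were tested and edgeR called neither in any comparison. The numbers with an unadjusted p under 0.05 were 0, 1 and 1 (4450, 4541 and 4722 of all 12744 genes tested), and DESeq2 called 1 for shOSGEP#2 (2395 of all 15710 genes in its fit). Acta2 had 0, 2 and 2 counts in shCtr, 4, 1 and 10 in shOSGEP#1, and 53 and 8 in shOSGEP#2 replicates 1 and 3. The medians over Acta2 and Actg2, 1.63, 3.29 and 1.67, rest on such low counts and are not read as a shift. The CPM of Acta2 and Actg2 was at most 2.08 and 1.37 in the deep libraries, and in shOSGEP#2 replicate 2 it was 68.5 (39 counts) and 0. Of 12 other tubulins 8 were tested, with medians of -0.20 for shOSGEP#1, -0.28 for shOSGEP#2 and 0.00433 between the shRNAs, beside 0.00211, -0.06 and -0.04 over all genes. Tuba4a fell in both comparisons with shCtr, the 1 call among these 8 in each (4.67% and 3.89% of all genes called lower). Its CPM was 26.7, 25.5 and 16.6 in shCtr, 6.34, 4.44 and 3.81 in shOSGEP#1, and 7.74 and 9.86 in shOSGEP#2 replicates 1 and 3, with no overlap between shCtr and the others. The log2 fold change was -2.25 (SE 0.27, adjusted p 0.000513) for shOSGEP#1 and -1.48 (SE 0.31, adjusted p 0.00708) for shOSGEP#2. The second call was lost without shCtr replicate 1, shCtr replicate 2, shOSGEP#1 replicate 2 or shOSGEP#2 replicates 1 or 3 (-1.35, -1.4, -1.48, -1.35 and -1.63), leaving 0 called in each case, and with all 9 libraries (-1.90). Between the shRNAs edgeR called 0 (10.8% of all genes), with 1 at an unadjusted p under 0.05 (4722 of all genes). The most abundant of these 12 was Tubg1, the γ-tubulin of microtubule nucleation, with a CPM of 101 to 168 in the deep libraries and no call.

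Of 25 genes of actin monomer binding, nucleation and turnover, 2 rose and 6 fell in shOSGEP#1 (5.00% and 4.67% of all genes tested), with a median log2 fold change of -0.18 (0.00211 over all genes). Tmsb10, which sequesters actin monomers, fell from a CPM of 600, 399 and 488 in shCtr to 200, 130 and 148 (log2 fold change -1.65, SE 0.22). Arpc5, a subunit of the Arp2/3 complex, fell from 248, 261 and 311 to 101, 89.4 and 96.4 (-1.53, SE 0.14), and Gsn, the filament-severing gelsolin, from 157, 167 and 145 to 92.3, 74.3 and 46.1 (-1.15, SE 0.22). Actr2, another Arp2/3 subunit, rose from 153, 168 and 150 to 333, 344 and 347 (1.11, SE 0.13). None of these groups overlapped, and the adjusted p-values were 0.000767, 0.000164, 0.00416 and 0.000406. Leaving out shCtr replicate 1, 2 or 3 or shOSGEP#1 replicate 2 left 4, 5, 5 and 4 of the 8 calls.

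In shOSGEP#2, 1 of these 25 genes rose and 1 fell (5.66% and 3.89% of all genes), with a median of -0.23 (-0.06 over all genes). Actr2 was at 330 and 332 (0.98, SE 0.14, adjusted p 0.000881) and Twf1, the monomer-binding twinfilin, fell from 436 ± 13.6 (SD, n = 3) to 262 and 294 (-0.75, SE 0.16, adjusted p 0.00876). The call of Twf1 was lost in 13 of 18 alternatives, with values of -0.70 to -0.80 when 1 library was left out. Including all 9 libraries, Actr2, at a CPM of 52.7 in shOSGEP#2 replicate 2, was at 0.49 (adjusted p 0.831) and Twf1 at -1.31 (0.793). The direct test between the shRNAs called 5 higher and 2 lower in shOSGEP#2 (6.23% and 4.56% of all genes), with a median of 0.03 (-0.04 over all genes). Gsn was at 202 and 244 in shOSGEP#2 (1.57, SE 0.24), Capza2, a capping protein subunit, at 332 and 353 against 135, 132 and 157 in shOSGEP#1 (1.19, SE 0.15), Tmsb10 at 435 and 322 (1.17, SE 0.23) and Arpc5 at 195 and 192 (0.94, SE 0.15). These 4 genes did not overlap between the shRNAs in the deep libraries. Their differences were 2.015, 0.64, 0.91 and 0.38 with all 9 libraries and none was called, with Capza2 and Arpc5 at 0 counts in shOSGEP#2 replicate 2. Leaving out 1 library left 1 to 3 calls for shOSGEP#2 and 2 to 5 between the shRNAs, the fewest without shOSGEP#1 replicate 2.

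Of 22 tested genes of actin filament binding and contraction, 5 rose and 1 fell in shOSGEP#1, and 11 rose and 0 fell in shOSGEP#2, beside 5.00% and 5.66% of all genes tested called higher, with medians of 0.55 and 1.14 against 0.00211 and -0.06 over all genes. Myl9, a regulatory light chain of myosin, was at a CPM of 0.917, 1.30 and 1.65 in shCtr, 6.49 ± 2.90 (SD, n = 3) in shOSGEP#1, and 32.05 and 34.5 in shOSGEP#2 replicates 1 and 3. Its log2 fold change was 2.32 (SE 0.37, adjusted p 0.00193) for shOSGEP#1 and 4.59 (SE 0.42, adjusted p 0.000127) for shOSGEP#2, and the groups did not overlap. Cnn2, a calponin, was at 125 ± 13.7 (SD, n = 3) in shCtr, 311, 341 and 190 in shOSGEP#1 and 629 and 529 in shOSGEP#2 (1.15, SE 0.21, and 2.12, SE 0.23).

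Tpm4, a tropomyosin that lines actin filaments, was at 82.1, 81.0 and 66.5 in shCtr, 164, 205 and 133 in shOSGEP#1 and 279 and 217 in shOSGEP#2 (1.12, SE 0.19, and 1.61, SE 0.20). Actn4, a cross-linking α-actinin, rose in shOSGEP#1 from 278, 250 and 294 to 477, 574 and 657 (1.04, SE 0.18), and Zyx, a focal adhesion protein, rose in shOSGEP#2 from 242, 227 and 185 to 913 and 762 (1.85, SE 0.17). In the deep libraries, shares of Myl9, Cnn2 and Tpm4 were thus ordered shCtr, shOSGEP#1, shOSGEP#2 without overlap. Between the shRNAs, edgeR called neither Cnn2 (0.97, adjusted p 0.0126) nor Tpm4. In shOSGEP#2 replicate 2, Myl9 and Tpm4 were at 93.1 and 313, and Cnn2 was at 70.3, below every shCtr library. The direct test called 6 of the 22 higher in shOSGEP#2 than in shOSGEP#1 and 0 lower (6.23% and 4.56% of all genes), with a median of 0.72 (-0.04 over all genes). Its largest called differences were Myl9 (2.27, SE 0.38), Cald1, the actin-binding caldesmon (1.63, SE 0.15), Zyx (1.51, SE 0.17) and Flna, the cross-linker filamin A (1.09, SE 0.22). Cald1 was at 830 and 854 in shOSGEP#2, against 263, 282 and 228 in shOSGEP#1 and 344, 372 and 346 in shCtr, so it did not follow the order above. Flna was at 1775 and 1448 in shOSGEP#2, against 864, 716 and 573 in shOSGEP#1. The count for shOSGEP#1 was 0, 0, 3 and 1 without shCtr replicates 1, 2 and 3 and shOSGEP#1 replicate 2, that for shOSGEP#2 was 8 to 12 when each library was left out, and that between the shRNAs was 3 without shOSGEP#2 replicate 1. With all 9 libraries edgeR called 0 of the 22 in each comparison, with 6, 11 and 6 at an unadjusted p under 0.05, DESeq2 called 2, 7 and 5, and limma voom 12, 13 and 6. Over all genes, 620, 1240 and 1325 were at an unadjusted p under 0.05 in edgeR. DESeq2 called 122, 349 and 413 of all genes, and limma voom 3317, 1012 and 933. In that edgeR fit Myl9, Cnn2, Tpm4 and Zyx were at 4.935, 1.60, 1.53 and 1.99 for shOSGEP#2, and Myl9, Cald1, Zyx and Flna at 2.63, 2.11, 1.66 and 0.76 between the shRNAs. The lower melanocytic and higher fibroblast marker sums of shOSGEP#2 stand beside these values, and their part in them was not tested.

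Of 21 tested genes of microtubule binding and dynamics, edgeR called 0 for shOSGEP#1 (median -0.15), with 4 at an unadjusted p under 0.05, beside 9.67% called, a median of 0.00211 and 4450 of 12744 over all genes, and DESeq2 on the 8 libraries called 0 (2420 of all 15710 genes in its fit). For shOSGEP#2, 2 rose and 1 fell (median 0.24), beside 5.66% and 3.89% of all genes (median -0.06). Kif5b, a kinesin heavy chain, had a CPM of 477, 571 and 626 in shCtr, 382, 410 and 432 in shOSGEP#1, and 1030 and 1556 in shOSGEP#2 replicates 1 and 3. Its log2 fold change was 1.11 (SE 0.19, adjusted p 0.00239) for shOSGEP#2 and 1.58 (SE 0.19, adjusted p 0.00035) between the shRNAs. Spast, the severing enzyme spastin, fell from 48.3, 59.1 and 64.5 to 30.0 and 30.2 (-1.02, SE 0.18), and Clip1, a plus-end protein, rose from 66.0, 60.1 and 49.9 to 97.6 and 108 (0.72, SE 0.16). Between the shRNAs, 4 were higher and 1 lower in shOSGEP#2 (median 0.19), beside 6.23% and 4.56% of all genes (median -0.04), including Spast (-1.34, SE 0.19), Mapre3, an end-binding protein (1.26, SE 0.26), and Map1s, a microtubule-associated protein (0.89, SE 0.16). Leaving out 1 library gave 0 to 4 calls for shOSGEP#2, with 0 without shCtr replicate 2 or shOSGEP#2 replicate 3, and 2 to 5 between the shRNAs. Values from all 9 libraries for Kif5b, Spast and Clip1 were 1.44, -0.75 and 0.25 for shOSGEP#2, and those for Kif5b, Spast, Mapre3 and Map1s 1.91, -1.055, 0.72 and 2.395 between the shRNAs.

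Of 12 tubulin modification genes, all tested, edgeR called 0 for shOSGEP#1 (median -0.31, 5 at an unadjusted p under 0.05, 1 called by DESeq2) and 1 fell in shOSGEP#2 (median -0.51). Over all 12744 genes tested, 4450 were at an unadjusted p under 0.05 for shOSGEP#1, 3.89% were called lower for shOSGEP#2, and the medians were 0.00211 and -0.06. For shOSGEP#1, DESeq2 called 2420 of all 15710 genes in its fit. Ttll1, a polyglutamylase subunit that acts on tubulin tails, had a CPM of 52.6, 41.3 and 41.1 in shCtr, 55.3, 45.3 and 43.6 in shOSGEP#1, and 18.3 and 18.8 in shOSGEP#2 replicates 1 and 3. It fell by 1.37 (SE 0.19, adjusted p 0.000839) on the log2 scale against shCtr and by 1.45 (SE 0.20) against shOSGEP#1. The direct test also called Ttll5, another glutamylase, lower (-0.98, SE 0.21) and Vash1, which removes the terminal tyrosine of α-tubulin (1.18, SE 0.24), and Hdac6, a tubulin deacetylase (0.80, SE 0.17), higher in shOSGEP#2 (median -0.28), beside 10.8% of all genes called in either direction (median -0.04). These 4 calls fell to 1 or 2 without any 1 of 7 libraries, and to 1 with only the groups compared in the fit. The calls of Vash1, Ttll5 and Hdac6 were lost in 12, 10 and 10 of 18 alternatives, where Vash1 ran from 0.57 to 1.56. Its CPM was 38.5 and 75.2 in shOSGEP#2 replicates 1 and 3, 26.7, 23.8 and 20.1 in shOSGEP#1, and 37.2, 35.9 and 36.5 in shCtr. Ttll1, with all 9 libraries, was at -1.87 against shCtr and -1.94 against shOSGEP#1, and Ttll5, Vash1 and Hdac6 at -1.49, 0.65 and 0.43 between the shRNAs.

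Genes used as references of immunoblots and qPCR, 14 in all and all tested, had medians of -0.15 for shOSGEP#1, -0.50 for shOSGEP#2 and -0.40 between the shRNAs, beside 0.00211, -0.06 and -0.04 over all genes. In shOSGEP#1, 2 rose (5.00% of all genes): Gusb, a lysosomal glucuronidase, from a CPM of 63.5, 65.9 and 78.2 to 150, 174 and 122 (1.09, SE 0.17, adjusted p 0.00174), and Sdha, a mitochondrial dehydrogenase subunit, from 123, 124 and 117 to 225, 211 and 279 (0.96, SE 0.15, adjusted p 0.00178). Both calls were lost without shCtr replicate 1 or 2, and 1 without shOSGEP#1 replicate 2. For shOSGEP#2, edgeR called 0 (9.55% of all genes), with 8 at an unadjusted p under 0.05 (4541 of all genes), and DESeq2 called 4 (2395 of all 15710 genes in its fit). Leaving out 1 library gave 0 to 2 calls there. Between the shRNAs, Gusb (-1.16, SE 0.20) and Ppia, cyclophilin A (-0.996, SE 0.20), were lower in shOSGEP#2 (4.56% of all genes), at -1.70 and -1.48 with all 9 libraries. The call of Gusb was lost in 3 and that of Ppia in 7 of 18 alternatives, and leaving out 1 library gave 0 to 3 calls, with 0 without shOSGEP#2 replicate 3. Gapdh had a CPM of 7799, 7110 and 4815 in shCtr, 5450, 5226 and 2775 in shOSGEP#1, and 6194 and 4882 in shOSGEP#2 replicates 1 and 3, and was not called (-0.56, SE 0.26, and -0.34, SE 0.29). Its shCtr replicates alone differed by more than those of Actb.

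Over the 8 deep libraries and 9314 genes with a mean CPM of at least 10, the genes whose log2 TMM-scaled CPM was most like the mean of both actins were Gmpr (Pearson r 0.971), Igf2bp3 (0.963), Slfn9 (0.955), Tgfa (0.954) and Arpp19 (0.952). Those most like the mean of the 8 tubulins were Grk2 (0.988), Mib2 (0.987), Ppp6r2 (0.987), Nfic (0.984) and Ripor1 (0.983). They were the highest of all genes compared, so no test is given, and the libraries share the group differences described above.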

How the data were processed

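The authors used bcl2fastq, Trim Galore, STAR and Salmon with the GRCm39 genome, and the counts deposited by the authors are whole numbers per gene. How Salmon's estimates became whole numbers, and by what criterion genes entered the table, is not stated in the sources. Groups and replicate numbers come from the sample labels. Symbols were found for 22237 of 22396 identifiers through GENCODE gene names of GRCm38. Since this build differs from GRCm39, no coordinates are given. Lengths and sequences come from GENCODE M21 transcripts.

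CPM used the total counts of each library. The fit in edgeR 4.0.16 (R 4.3.3) held 8 libraries, with TMM, filterByExpr, the quasi-likelihood test and no covariate, and tested 12744 genes. Calls needed a Benjamini-Hochberg adjusted p under 0.01, the threshold in the authors' methods. Each SE was obtained from the fold change and its F statistic. Replicates are no duplicates of each other, as 62% to 86.8% of well-counted genes differed beyond sampling noise in each pair. TMM factors were 0.975 to 1.07. Alternatives were DESeq2 1.42.0, limma 3.58.1 (voom with sample weights), RLE, library totals, other filters, an adjusted p under 0.05, only the groups compared, a replicate block, all 9 libraries, and each library left out. The scripts were tested on simulated data. Python 3.11.15 made tables and figures (pandas 2.3.3, numpy 2.4.6, matplotlib 3.10.9, scipy 1.17.1).

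Genes named are the 10 actins and tubulins, Osgep, up to 4 called genes per list and comparison with the largest absolute log2 fold change, list genes given for their role, and 5 genes per family by likeness (mean CPM of at least 10, highest Pearson r over 8 libraries). Gapdh and Tubg1 were picked after their values were seen. The 9 lists are muscle actins, other tubulins, folding, autoregulation, actin monomer binding and turnover, actin filament binding and contraction, microtubule binding, tubulin modification and reference genes. Genes and lists were chosen with earlier results of these data known.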

Additional observations from a re-analysis of the deposited data

Results flagged for a closer look

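Tubb6 differed between the shRNAs by the direct test, with a log2 fold change of 1.68 (SE 0.38, edgeR adjusted p 0.00952) for shOSGEP#2 against shOSGEP#1. The call was lost in 11 of 18 alternatives, and without shOSGEP#2 replicate 1 the value was 0.998 (adjusted p 0.0943). Tubb6 was lower than shCtr in all 3 shOSGEP#1 libraries, and above the highest shCtr library in shOSGEP#2 replicate 1 only among the deep libraries of its group.

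In shOSGEP#2 replicate 2, which is outside the fit of 8 libraries, Tubb6 and Tubb2a were above the highest shCtr library. The CPM of Tubb6 was 137 (95% Wilson interval 110 to 171, 78 counts) against at most 91.4 in shCtr. That of Tubb2a was 93.1 (71.2 to 122, 53 counts) against at most 50.5. The other 8 actin and tubulin genes were below the highest shCtr library there, and Tuba1a and Tuba1c had 0 counts.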

How the results depend on the processing

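Of 30 log2 fold changes of the actins and tubulins, 15 kept their sign under every alternative. Of their 540 alternative values, 464 kept sign and side of the threshold, 26 were no longer past it, 10 became past it and 40 changed sign. Of 790 values of 44 fold changes of other named genes, these counts were 588, 193, 9 and 0. The cause was not tested in any of these cases. Genes called (shOSGEP#1, shOSGEP#2, between the shRNAs) were 1232, 1217 and 1375. With all 9 libraries edgeR called 0, 0 and 0, DESeq2 122, 349 and 413, and voom 3317 for shOSGEP#1. DESeq2 on 8 libraries called 2420, 2395 and 2595, and an adjusted p under 0.05 gave 2797, 2674 and 2952. With only the groups compared, 737 were called between the shRNAs. Leaving out 1 library gave 318 to 1458, 518 to 1471 and 743 to 1504. Of the 10 genes, 2, 1 and 1 were called. All 9 libraries gave 0, 0 and 0 in edgeR and in DESeq2, and 6, 0 and 0 in voom. Between the shRNAs, DESeq2, no filter and an adjusted p under 0.05 each gave 2, and with only the groups compared 0 were called there and 0 for shOSGEP#2. Leaving out 1 library gave 1 to 2, 0 to 1 and 0 to 1. The replicate block gave 4 for shOSGEP#1 and 2 between the shRNAs, with -0.0341 for Tubb5 (shOSGEP#1) and 0.00118 for Tuba1b (shOSGEP#2) changing sign. The calls added were Tubb4b and Tubb6 for shOSGEP#1 and Tubb2a between the shRNAs. Replicate numbers were not used to pair the samples in the main fit, since not every library correlated best with its own number. Correlations of same-numbered libraries, taken on deviations from group means, ran from -0.00337 to 0.18. The 2 deep shOSGEP#2 libraries deviate from their mean in opposite directions by construction. These correlations therefore cannot show that the replicates were unpaired. Signs changed with all 9 libraries in edgeR for Tubb5 (-0.00657, shOSGEP#1), Actb (-0.0277) and Actg1 (-0.0509) for shOSGEP#2, and between the shRNAs for Actb (-0.2905), Tuba1a (-0.3679), Tuba1b (-0.2506), Tuba1c (-0.1154) and Tubb3 (-0.3639). In DESeq2 with all 9 libraries they changed for Actb (-0.0609) and Actg1 (-0.0816) for shOSGEP#2, and between the shRNAs for Actb (-0.3444), Tuba1a (-0.4422), Tuba1b (-0.2967), Tuba1c (-0.1886), Tubb3 (-0.4068) and Tubb4b (-0.00714), and in voom for Tubb3 (-0.1475). Library totals gave 0.0444 for Tuba1b and 0.0355 for Tubb5 (shOSGEP#2) and 0.0198 for Tubb5 between the shRNAs. Tubb5 for shOSGEP#1 was -0.00159 with no filter and -0.00929 with only the groups compared. Leaving out 1 library gave, for shOSGEP#1, -0.3344 to 0.018 for Tuba1b and -0.0995 to 0.1731 for Tubb5. For shOSGEP#2 it gave -0.1753 to 0.0643 for Tuba1b, -0.5029 to 0.2883 for Tubb5 and -0.0165 to 1.129 for Tubb6. Between the shRNAs it gave -0.2493 to 0.00999 for Actg1, -0.0647 to 0.2978 for Tuba1b, -0.2426 to 0.2574 for Tubb3 and -0.5028 to 0.2885 for Tubb5. With the median transcript length, 22 of 30 levels per kilobase moved by more than the SD of replicates.

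With shOSGEP#2 replicate 2 set apart, shOSGEP#2 rests on 2 libraries, and without 1 of them the lone library is assumed to vary like the other groups. A p that misses the threshold does not show that values did not differ. In shOSGEP#2 replicate 2, genes below a CPM of 5.27 are under the floor and abundant genes can be at 0. Reads shared between α-tubulin genes limit the split between them. Groups of 3 were not tested for outliers. Shares of RIG-I-bound RNA do not separate RNA level from recovery or from changes of other RNAs in the library.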
